A study of Gallus gallus with 8 samples.

Results

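The let-7 family was measured by small RNA sequencing in chick facial ectoderm, taken from the frontonasal ectodermal zone, which signals to the tissue that grows into the upper jaw. Members were all rows of the deposited miRNA matrix whose name begins gga-let-7, of any letter and arm. There were 16 such rows among 994, and counted once where values were identical in every library they gave 12 profiles among 603. let-7a-5p and let-7j-5p were identical and are given as let-7a-5p. Another 4 rows, all of 3p arms (let-7a-3p, let-7f-3p, let-7j-3p and let-7k-3p), held 0 reads in every library, so 11 profiles had reads. The study compared ectoderm of normal, untreated Rhode Island Red embryos of 48 h, stage HH18 of the Hamburger-Hamilton series, with that of 72 h, stage HH22. By the design text these lie before and after Sonic hedgehog expression begins. Each stage had 4 libraries, numbered 5 to 8 at HH18 and 1 to 4 at HH22, and each library pooled 2 chicks. The labels do not say how the pools were related, so the tests measure the spread between these pools.

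let-7 was found in Caenorhabditis elegans as a regulator of the timing of larval development, and its mature form accumulates late in development in many animals. Members share a seed, the bases near the 5′ end that pair with target mRNAs, and the mature miRNA of nearly all of them is cut from the 5p arm of the hairpin. In vertebrates the RNA-binding protein LIN28 blocks maturation of let-7 precursors, and let-7 in turn represses mRNAs that include LIN28 and HMGA2. Some let-7 genes are neighbours of miR-99, miR-100 and miR-125 genes. miR-125 is the vertebrate relative of lin-4, the other timing miRNA of the worm.

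The RefSeq annotation of the chick assembly GRCg7b was used for the order of genes only. It places the let-7f gene between those of let-7d and let-7a-1, with 0 other genes between them, and all 3 overlap long noncoding RNA genes. The let-7a-3 and let-7b genes are adjacent and overlap PPARA, and the let-7j and let-7k genes are adjacent and overlap MTCH1. The let-7c gene lies between those of miR-99a and miR-125b-2, again with 0 other genes between them. The let-7a-2 gene lies between those of miR-100 and miR-125b-1, with 1 other gene, MIR6675, between let-7a-2 and miR-100. The let-7g gene overlaps WDR82 and the let-7i gene overlaps MON2.

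Levels are normalized counts, that is, reads divided by the size factor of the library that the deposited values carry. Summed over all rows of the matrix, the HH18 libraries held 6276121 to 31318393 reads and the HH22 libraries 46912793 to 88471588. Depth and stage therefore cannot be told apart in the counts as deposited. The epithelial markers (6 of 7 listed were in the matrix, among them miR-203a, miR-205a and the miR-200 family) summed to 251402 to 362114 at HH18 and 446016 to 604537 at HH22, and were abundant in every library. Mesenchyme and smooth muscle markers (3 of 5, miR-199-5p, miR-199-3p and miR-214) summed to 2454 to 5399.9 at HH18 and 6658 to 9415 at HH22. Neural markers (6 of 6) summed to 48271 to 69908 at HH18 and 50018 to 59829 at HH22, and striated muscle markers (4 of 4) to at most 38.2 and 92.0. The neural sum was mostly miR-128-3p and hides opposite changes. miR-9-5p was at 15551 to 23806 at HH18 and 7879 to 9411 at HH22, and miR-219a at 1614 to 4558 and 5018 to 7150. Blood and endothelial markers (7 of 7, among them miR-451, miR-142 and miR-126) summed to 14323, 2041, 233 and 364 in HH18 replicates 5 to 8 and 289, 315, 338 and 2079.9 in HH22 replicates 1 to 4. No listed marker that was in the matrix was at 0 in all libraries.

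The summed let-7 level was higher at HH22. It was 10382, 7301, 9198 and 11545 normalized counts in HH18 replicates 5 to 8 and 19833, 22161, 20796 and 21227 in HH22 replicates 1 to 4. The stages did not overlap, and the mean went from 9607 ± 1811 to 21004 ± 967 (SD, n = 4), a ratio of 2.19. No test was made of this sum. It counts the identical rows let-7a-5p and let-7j-5p once, and if reads were divided between them both belong in it. With both counted the mean went from 11294 ± 2129 to 25317 ± 1101 (SD, n = 4), a ratio of 2.24. Even so let-7 was a minor part of the library, with 0.0337% ± 0.0040 of all HH18 reads and 0.0705% ± 0.0054 of all HH22 reads (SD, n = 4). In these bulk samples, more cells of a type that holds let-7 and more let-7 per cell cannot be told apart.

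**Figure D1:**
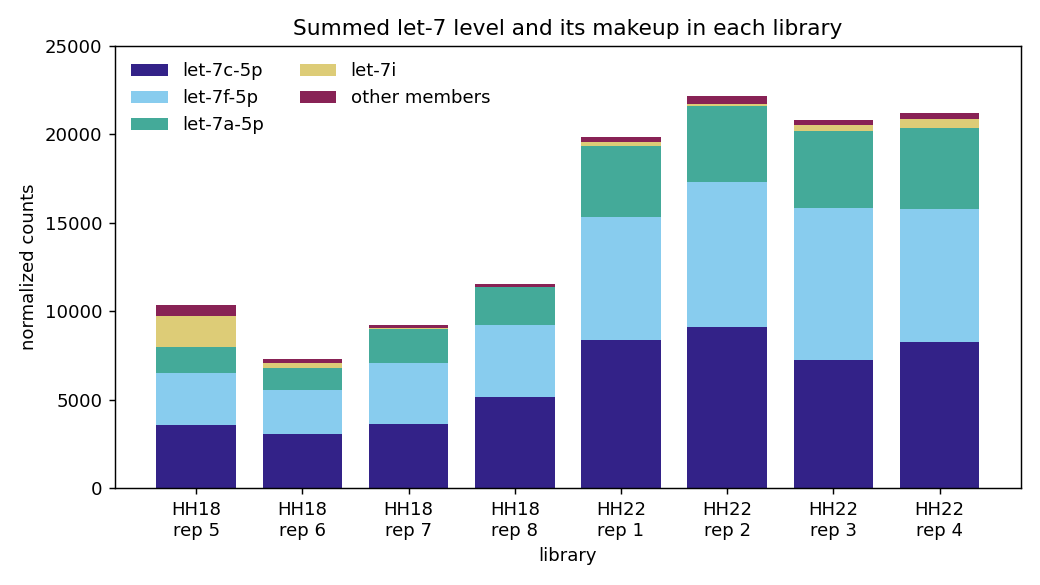
Normalized counts of the let-7 members stacked in each of the 8 libraries (x axis, stage and replicate). The HH22 bars reach 19833 to 22161 and the HH18 bars 7301 to 11545, and let-7c-5p, let-7f-5p and let-7a-5p fill most of every bar, while let-7i is a visible part of HH18 replicate 5.

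Nearly all of this level was let-7c-5p, let-7f-5p and let-7a-5p. Together they held 76.8% of the 5p reads of the family in HH18 replicate 5 and 94.6% to 98.8% in the other 7 libraries. let-7c-5p, from the gene beside miR-99a, measured 3553, 3048, 3655 and 5167 normalized counts at HH18 (replicates 5 to 8) and 8385, 9119, 7249 and 8284 at HH22 (replicates 1 to 4). Every HH22 library was above every HH18 library, among which replicate 8 was the highest. let-7f-5p measured 2974, 2509, 3444 and 4066 at HH18 and 6958, 8201, 8576 and 7481 at HH22. The stages again did not overlap. let-7a-5p, the arm that the let-7a-1, let-7a-2, let-7a-3 and let-7j genes share, measured 1445, 1259, 1889 and 2156 at HH18 and 4022, 4273, 4389 and 4569 at HH22. Its HH22 libraries were the most alike of any member, with a coefficient of variation of 5.32%, against 24.3% at HH18, and its stages did not overlap either.

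All 3 rose past the threshold (limma-trend on log2(normalized count + 1), Benjamini-Hochberg adjusted p under 0.05 over 356 tested features). The means of let-7a-5p were 1687 ± 409.5 and 4313 ± 229 (SD, n = 4), a log2 change of 1.38 with an SE of 0.19 (limma adjusted p = 0.000911). Those of let-7f-5p were 3248 ± 666 and 7804 ± 725, a log2 change of 1.28 with an SE of 0.17 (limma adjusted p = 0.000887). Those of let-7c-5p were 3856 ± 913 and 8259 ± 769, a log2 change of 1.12 with an SE of 0.17 (limma adjusted p = 0.0014). Of the 8 let-7 profiles that passed the filter on low values, 3 thus rose and 0 fell, where 9.83% of all tested features were called higher and 4.78% lower. Among the 79 tested features whose mean reached 1000 normalized counts, which include these 3 members and no other let-7 profile, 22 were called higher. Counts over all tested features keep identical rows, so the 79 and the 22 hold both let-7a-5p and let-7j-5p. With identical rows collapsed, 354 features were tested and 34 were called higher. The median log2 fold change was 1.20 over the 8 let-7 profiles and 0.38 over all tested features. The former takes in scarcer profiles that did not pass, with SE of 0.72 to 1.62, so it does not show a rise of every member. Summed without let-7a-5p, let-7c-5p and let-7f-5p, the family overlapped between the stages. That sum had means of 815 ± 1073 at HH18, where replicate 5 held 2410, and 628 ± 184 at HH22 (SD, n = 4). All 4 HH22 libraries lay above all 4 HH18 libraries in 3 of the 8, as in 11.5% of all tested features.

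These 3 members passed as higher under each scaling tried. Scaling by library totals without the 5 most abundant features, among them miR-100-5p and miR-99a-5p, lowered the median of all tested features by 0.43 on the log2 scale. Under it let-7a-5p, let-7f-5p and let-7c-5p had log2 fold changes of 0.92, 0.82 and 0.66 and still passed (limma adjusted p = 0.0043, 0.0043 and 0.0136). Relative to the median of all tested features they stood 1.01, 0.91 and 0.75 higher on the log2 scale with the deposited size factors, and 0.97, 0.87 and 0.71 with this scaling. With every library thinned to the depth of the shallowest, the log2 fold changes were 1.43, 1.30 and 1.11, and all 3 passed (limma adjusted p = 0.000194, 0.000194 and 0.000451). Of the markers tested, 2 of 6 epithelial and 2 of 3 mesenchyme and smooth muscle miRNAs were also called higher. Of all tested features 9.83% were called higher and 4.78% lower. The sums of both lists did not overlap between the stages, as was so for 11.5% of all tested features in the direction of HH22. Among the members of these lists miR-200a-3p, miR-200b-3p, miR-429-3p, miR-199-3p and miR-214 did overlap. Of the neural markers tested 1 of 5 was called higher and 1 lower, of those of striated muscle 1 of 3 was called higher, and of those of blood and endothelium 0 of 7 were called. The striated muscle marker called, miR-133a-3p, was at 0 in every HH18 library and at 3.41 to 15.7 normalized counts at HH22. It passed the filter on low values only through the HH22 libraries, which are deeper, so nothing is drawn from its call. The part of these cell types in the rise was not tested.

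**Figure D2:**
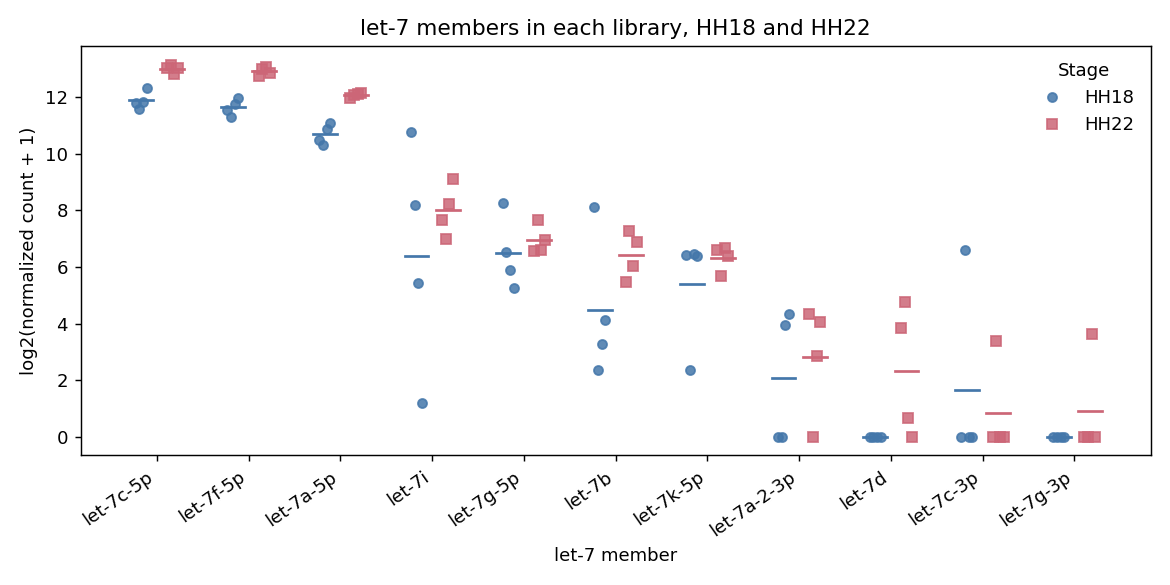
Level of the 11 let-7 profiles with reads, as log2(normalized count + 1), in each library (circles, HH18; squares, HH22; bars, mean of 4). let-7c-5p, let-7f-5p and let-7a-5p form tight groups that do not overlap between the stages, whereas the other members scatter, let-7i at HH18 from 1.27 to 1743 normalized counts.

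The means of the 3 abundant members were 2.56 (let-7a-5p), 2.40 (let-7f-5p) and 2.14 (let-7c-5p) times higher at HH22. let-7a-5p held 17.7% ± 2.8 of the summed 5p level at HH18 and 20.6% ± 0.99 at HH22, let-7f-5p 34.1% ± 3.8 and 37.2% ± 2.9, and let-7c-5p 40.3% ± 4.5 and 39.4% ± 3.3 (SD, n = 4). Of the 4 members with at least 3 reads in every library, let-7g-5p being the other, 0 changed in share past the threshold (exact two-sided permutation tests, smallest p 0.0857 for let-7a-5p, adjusted p = 0.343 over 4 members). With 4 libraries a stage, adjustment over 4 members leaves 0.114 as the smallest adjusted p when 1 member separates the stages and 0.0571 when 2 do, so this test could not have called a change in 1 or 2 members and does not show that the makeup stayed the same. In order of level, let-7c-5p came first and overlapped let-7f-5p at both stages. It was above let-7f-5p in 7 of the 8 libraries, the exception being HH22 replicate 3. let-7a-5p, with its identical row counted once, lay below let-7f-5p in 8 of 8 libraries with no overlap at either stage. With let-7a-5p and let-7j-5p summed this order does not hold: the pair then lay above let-7f-5p in 7 of 8 libraries and above let-7c-5p in 3. Of the 5p level the summed pair then made up 29.96% ± 4.09 in the HH18 libraries and 34.1% ± 1.37 in the HH22 libraries (SD, n = 4). The remaining members followed at a distance at HH22 (let-7i, let-7g-5p, let-7b and let-7k-5p, whose ranges overlapped from each to the next), while at HH18 let-7i in replicate 5 reached the level of let-7a-5p. Mature miRNAs are of nearly the same length, so these levels were compared without a length correction. Whether library preparation recovered each member equally was not tested. Members differ at few bases, and kallisto, named in the submitters' processing notes, divides reads that match several sequences, so the split between members is less certain than their sum.

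let-7i, let-7g-5p, let-7b and let-7k-5p did not pass the threshold, and their HH18 libraries differed widely. let-7i, encoded by a gene of its own, measured 1743, 289, 42.4 and 1.27 normalized counts in HH18 replicates 5 to 8 and 203, 127, 301 and 555 in HH22 replicates 1 to 4. The HH18 values spanned 1369-fold, from 755 reads in replicate 5 to 1 read in replicate 8, and enclosed all HH22 values. Its mean was lower at HH22 (296 ± 186 against 519 ± 826, SD, n = 4) although its log2 change was 1.61 with an SE of 1.62 (limma adjusted p = 0.581), since the mean follows replicate 5 and the log scale replicate 8. Without HH18 replicate 8 the log2 fold change was -0.12. Without HH18 replicates 5 and 6, let-7i passed as higher at HH22 (log2 fold change 4.69, limma adjusted p = 0.0159). Those are the shallowest libraries but also the HH18 libraries highest in let-7i. Leaving them out left only the values 42.4 and 1.27 at HH18, so this call follows from the libraries removed.

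let-7b, from the gene beside let-7a-3, measured 275, 4.18, 8.79 and 16.5 at HH18 and 43.6, 153, 64.2 and 117 at HH22. HH18 replicate 5 was above all HH22 libraries and the other 3 HH18 libraries below them (log2 change 1.94 with an SE of 1.25, limma adjusted p = 0.374). Without HH18 replicate 5 let-7b passed as higher at HH22 (log2 fold change 3.15, limma adjusted p = 0.0466), as did 36 of 349 tested features, let-7b among them. That is the HH18 library highest in let-7b, so this call follows from the library removed. The HH18 values left rested on 1, 11 and 13 reads. let-7g-5p measured 307, 92.0, 58.3 and 36.9 at HH18 and 93.6, 202, 97.2 and 123 at HH22 (log2 change 0.46 with an SE of 0.72, limma adjusted p = 0.714). Its log2 change was 1.06 without HH18 replicate 5, 0.049 without HH18 replicate 8 and 0.00093 with the 5 most abundant features kept out of the scaling, and it passed in none of the 19 alternatives. HH18 replicate 5 was the highest library and the other 3 HH18 libraries the lowest.

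The HH18 library with the most let-7i, let-7b and let-7g-5p, replicate 5, was also the one with the highest sum of blood and endothelial markers, 14323 normalized counts. HH18 replicates 5 and 6 and HH22 replicate 4 had the 3 largest blood marker sums. Of these, HH18 replicate 5 and HH22 replicate 4 were the highest in let-7i of their stages. HH18 replicate 6 and HH22 replicate 3 were the next highest of their stages in both let-7i and the markers. Among the remaining libraries of each stage the order of let-7i was the reverse of that of the markers. Thus HH18 replicate 8, with a marker sum of 364, had less let-7i (1.27) than HH18 replicate 7 (42.4), with 233. Between the stages let-7i did not always follow the markers. HH22 replicate 3, with a marker sum of 338, had more let-7i (301) than HH18 replicate 6 (289), with 2041. HH22 replicate 2, the highest of its stage in let-7b and let-7g-5p, had a blood marker sum of 315, within the 289 to 338 of HH22 replicates 1 to 3. The part of blood or endothelial RNA in these levels was not tested. let-7c-5p, let-7f-5p and let-7a-5p were not high in HH18 replicate 5, where each was below HH18 replicates 7 and 8.

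**Figure D3:**
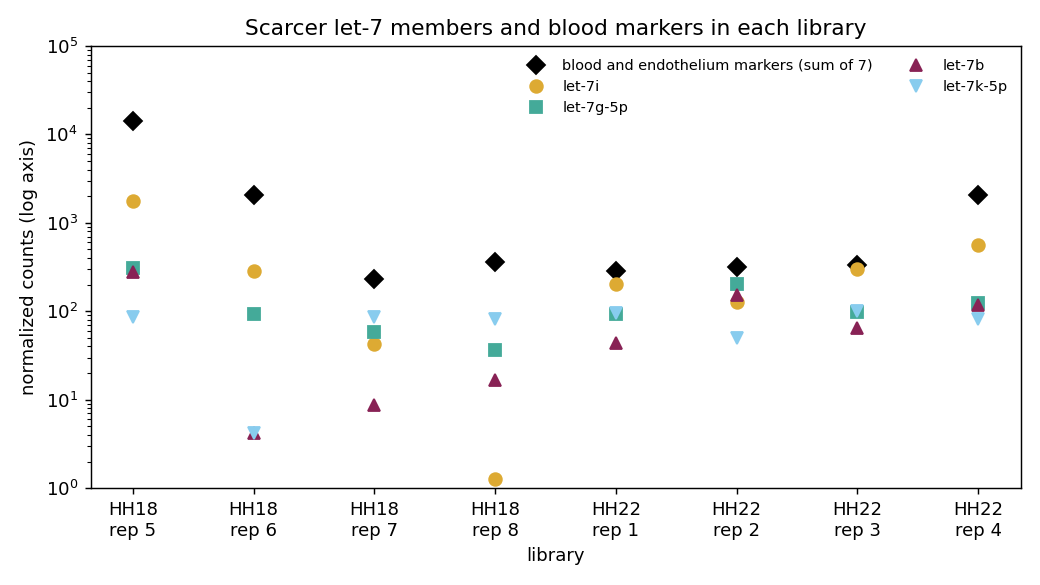
Normalized counts (log axis) of let-7i, let-7g-5p, let-7b and let-7k-5p and the sum of 7 blood and endothelial markers in each library. HH18 replicate 5 is the highest of the HH18 libraries in let-7i (1743), let-7g-5p (307), let-7b (275) and the markers (14323), while let-7k-5p (85.4) is level with HH18 replicates 7 and 8.

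let-7k-5p, from the gene beside let-7j, measured 85.4, 4.18, 86.3 and 82.7 at HH18 and 95.6, 50.2, 101 and 82.9 at HH22. Apart from HH18 replicate 6, where 1 read was counted, the libraries of both stages overlapped (log2 change 0.92 with an SE of 1.03, limma adjusted p = 0.614), and without that library the log2 change was -0.089. let-7d, whose gene neighbours that of let-7f, had 0 reads in all 4 HH18 libraries and 40, 42, 1 and 0 reads in HH22 replicates 1 to 4. These were 13.4, 26.4, 0.568 and 0 normalized counts, where a floor of 3 reads stood at 2.40 to 12.5 in the HH18 libraries. let-7d did not pass the filter on low values and was not tested. Over the 8 libraries it had 83 reads, against 69749 of let-7f-5p.

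The 3p arms were at or near the limit of counting. Of 7 rows of 3p arms 4 had 0 reads, and the other 3 had 183 reads in all, against 190177 for the 5p arms and rows without an arm in their name. let-7a-2-3p, specific to the let-7a-2 gene, measured 0, 0, 14.4 and 19.1 at HH18 and 19.1, 0, 6.25 and 15.7 at HH22 (log2 change 0.74 with an SE of 1.44, limma adjusted p = 0.767). The libraries at 0 included both shallow HH18 libraries and HH22 replicate 2. In the 5 libraries that held it, let-7a-5p had 113 to 702 reads for each of its reads, a figure that takes in the 5p arm of all let-7a genes. The identical row let-7j-5p is left out of it, so it would be larger if reads were divided between those rows. let-7c-3p had 23 reads in HH18 replicate 6 and 15 in HH22 replicate 2, and let-7g-3p had 20 in HH22 replicate 3, with 0 in all other libraries. No pair of arms had 3 reads of both in every library, so no change in the ratio of the arms was tested.

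The neighbours of let-7 in its gene clusters, miR-99a, miR-100 and miR-125b, did not pass the test that let-7a-5p, let-7c-5p and let-7f-5p passed. Of 6 arms tested 0 passed by limma in either direction, 0 had an unadjusted p under 0.05, and 0 passed with voom weights. Of all 356 tested features 52 (14.6%) passed by limma, 89 had an unadjusted p under 0.05, and 47 passed with voom. With 6 arms, a count of 0 does not set the partners apart from all features. The mean of miR-99a-5p was 3150574 ± 326839 in the HH18 libraries and 3103417 ± 221552 in the HH22 libraries (SD, n = 4), a log2 change of -0.02 with an SE of 0.13 (limma adjusted p = 0.934). For miR-125b-5p the log2 change was -0.17 with an SE of 0.16, and for miR-100-5p 0.20 with an SE of 0.16. The latter was -0.26 when the 5 most abundant features were kept out of the scaling. With that scaling miR-99a-5p, miR-125b-5p and miR-125b-3p passed as lower (log2 fold change -0.49, -0.63 and -0.41, limma adjusted p = 0.0294, 0.0156 and 0.0172). Of all 355 features tested with it, 47 were called lower and 24 higher, and the median log2 fold change was -0.05. The 5p arm of each partner was itself among the 5 features left out of those library totals. Whether the partners differ from all features under that scaling was not tested.

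**Figure D4:**
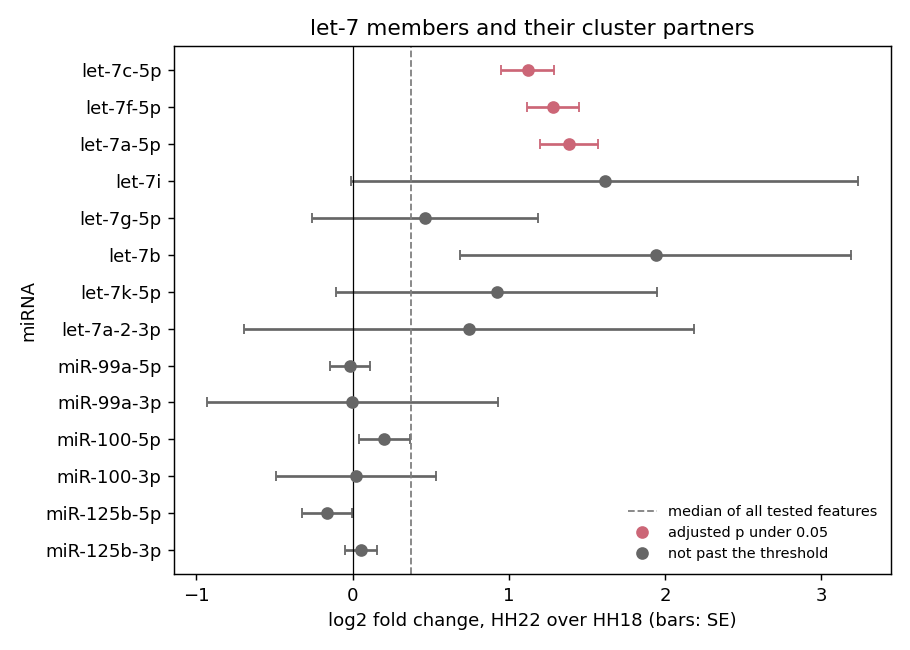
Log2 fold change of HH22 over HH18 with its SE for the 8 tested let-7 profiles and 6 arms of their cluster partners (dashed line, median of all tested features, 0.38). let-7c-5p, let-7f-5p and let-7a-5p lie at 1.12 to 1.38 with SE of at most 0.19, the scarcer members have SE of 0.72 to 1.62, and the 6 partner arms lie between -0.17 and 0.20.

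Ratios of let-7 to these partners within a library, which do not depend on scaling, were compared between the stages. They are ratios of reads, and whether different miRNAs were recovered equally was not tested. How reads were divided between the partners, such as miR-99a-5p and the more abundant miR-100-5p, was not tested either. For each let-7c-5p read there were 930.0, 902, 833 and 678 reads of miR-99a-5p in HH18 replicates 5 to 8 and 387, 340.0, 385 and 396 in HH22 replicates 1 to 4. Both are made from adjacent genes, and the ratio of let-7c-5p to miR-99a-5p was 2.21 times higher at HH22 (difference in mean log2 ratio 1.14, from -9.70 ± 0.21 to -8.56 ± 0.10, SD, n = 4). The ratio of let-7c-5p to miR-125b-5p was 2.44 times higher (log2 ratio -6.62 ± 0.50 and -5.33 ± 0.19, SD, n = 4), and that of let-7a-5p to miR-100-5p 2.27 times higher (log2 ratio -13.4 ± 0.30 and -12.2 ± 0.08, SD, n = 4). For all 3 ratios the stages did not overlap, with an exact two-sided permutation p of 0.0286, the smallest that 4 against 4 can give, and the same value after adjustment over the 3. These tests reuse the let-7 values already called above, and the ratios to miR-99a-5p and miR-125b-5p share let-7c-5p. They are therefore not independent of those calls or of each other. let-7a-5p comes from several genes, and miR-125b-5p from the genes miR-125b-1 and miR-125b-2, so those ratios are not of 1 cluster.

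**Figure D5:**
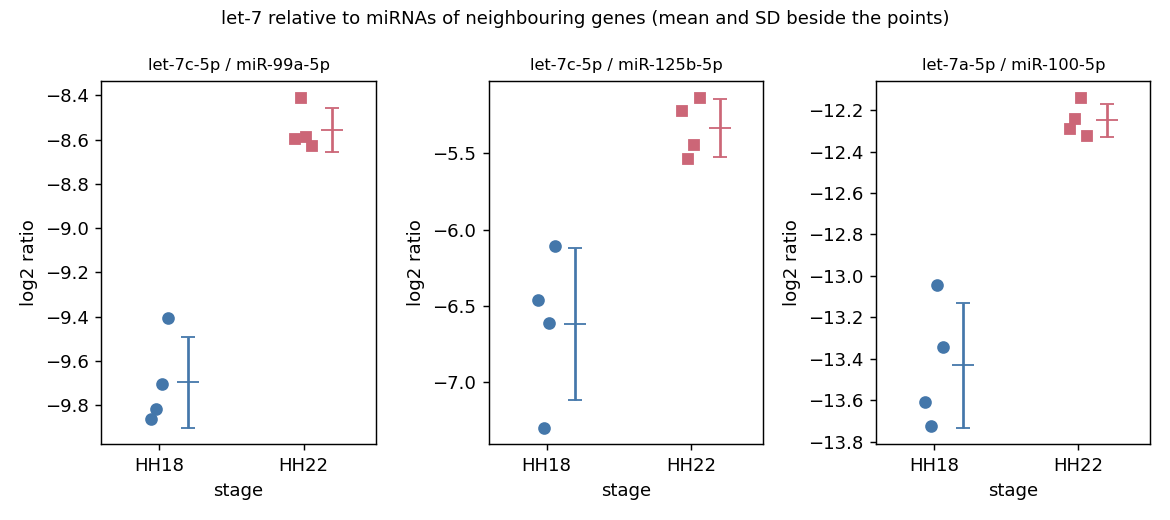
Log2 ratio of let-7c-5p to miR-99a-5p and to miR-125b-5p, and of let-7a-5p to miR-100-5p, in each library (circles, HH18; squares, HH22; bars beside them, mean and SD of 4). In each panel all HH22 libraries lie above all HH18 libraries, by 1.14, 1.29 and 1.18 on the log2 scale between the means.

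The miRNAs outside the family whose profile over the 8 libraries was most like that of the summed let-7 5p level were miR-30a-5p, miR-101-3p, miR-181a-5p, miR-205b and miR-148a-3p. Likeness was the root-mean-square difference of log2(normalized count + 1) after centring, and was 0.243 to 0.309 for these 5, against a median of 0.840 over the 174 candidates with a mean of at least 100. Within the family the same measure to the summed level was 0.128 for let-7c-5p, 0.139 for let-7f-5p and 0.192 for let-7a-5p, 0.942 for let-7g-5p, and 1.14 to 2.66 for let-7k-5p, let-7b, let-7a-2-3p and let-7i. As let-7c-5p, let-7f-5p and let-7a-5p make up most of that sum, their closeness to it was largely fixed in advance. The mean of miR-101-3p was 20630 ± 4083 in the HH18 libraries and 44883 ± 6794 in the HH22 libraries (SD, n = 4), a log2 change of 1.13 with an SE of 0.16. The mean of miR-30a-5p was 19909 ± 4019 and 40309 ± 3559 (SD, n = 4), a log2 change of 1.04 with an SE of 0.15. miR-205b also stands among the epithelial markers. The likeness is over 8 libraries that share stage and depth, and describes these libraries only.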

How the data were processed

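Per the labels' protocols, miRNeasy total RNA was made into libraries with an Illumina TruSeq small RNA kit. Tools named in the submitters' processing notes are bcl2fastq, cutadapt 1.8.1 and kallisto 0.44.0, whose reference is not given in the sources used here. The deposited values are on a log2 scale whose transformation the labels do not state. Inverting the closed-form variance-stabilizing transformation gave whole multiples of 1 step per library (tolerance 0.001) for 100% of values above 0. These multiples are called reads, and the inverted values normalized counts. 1 read was worth 0.336 to 4.18 normalized counts.

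Replicates of a stage differed beyond counting noise (chi-square over its degrees of freedom at least 187), so each counted as 1 sample. A feature was tested if 4 or more libraries reached a normalized count of 1, by limma-trend on log2(normalized count + 1), since the deposited values are not counts. The procedure was also run on simulated data, whose outcome is not given here and is not used as support. Floors of 3 reads cover counting error only. Every let-7 profile with reads was named, with the arms of miR-99a, miR-100 and miR-125b and the 5 most alike miRNAs with a mean of at least 100. Members and lists were chosen with earlier results of these data known. Alternatives were other pseudocounts, filters, scalings and weights, thinning, and leaving out libraries. Versions were R 4.3.3, limma 3.58.1, Python 3.11.15, numpy 2.4.6, pandas 2.3.3 and scipy 1.17.1.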

Additional observations from a re-analysis of the deposited data

Results flagged for a closer look

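In 6 of 38 groups of 4 libraries examined, 1 library lay far from the other 3. The rule used flags about 1 in 20 groups of normally distributed values by chance. Many of these groups were scarce, uneven counts, so no excess can be read from the number flagged. Of the 6 groups, 3 were scarce 3p arms with reads in 1 library of the stage, which the rule always flags. They were let-7c-3p with 96.2 normalized counts in HH18 replicate 6 and 9.42 in HH22 replicate 2, and let-7g-3p with 11.4 in HH22 replicate 3, against 0 in the rest. HH18 replicate 5 stood far above the other HH18 libraries in let-7b, with 275 normalized counts against at most 16.5, and in let-7i, with 1743 against at most 289. HH18 replicate 6 stood far below them in let-7k-5p, with 4.18 normalized counts, or 1 read, against 82.7 to 86.3.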

How the results depend on the processing

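let-7a-5p, let-7c-5p and let-7f-5p passed as higher at HH22 in all 19 alternatives, with log2 fold changes of 0.92 to 1.51, 0.66 to 1.27 and 0.82 to 1.40 and limma adjusted p of at most 0.0043, 0.0136 and 0.0043. The number of let-7 members called was 3 in 17 of them and 4 without HH18 replicate 5 (let-7b added) and without HH18 replicates 5 and 6 (let-7i added), so 3 to 4 with 1 library left out. Over all features the number called, 52, was 24 with no filter and 27 to 66 with 1 library left out (27, 29, 29 and 27 without HH22 replicates 1 to 4). With the 5 most abundant features kept out of the scaling it was 71, of which 33.8% were higher at HH22, against 67.3% with the deposited size factors. With that scaling the log2 ratio of the summed let-7 level was 0.67, against 1.13. Signs turned for let-7a-2-3p with voom (-0.0044) and without HH18 replicates 5 and 6 (-1.32), for let-7i without HH18 replicate 8 (-0.12, the lowest with 1 library left out, the highest being 3.07), and for let-7k-5p without HH18 replicate 6 (-0.089) and without HH18 replicates 5 and 6 (-0.084). Differences in share, none past the threshold, turned for let-7c-5p without HH18 replicate 8 (0.58 percentage points) and without HH22 replicate 3 (0.56), within a range of -2.95 to 0.58 with 1 library left out, and for let-7g-5p without HH18 replicates 5 and 6 (0.13). The cause of these changes was not tested. Without HH18 replicates 5 and 6 the log2 differences in the ratios of let-7c-5p to miR-99a-5p, let-7c-5p to miR-125b-5p and let-7a-5p to miR-100-5p were 0.998, 1.03 and 0.95, with an exact permutation p of 0.0667, the smallest that 2 against 4 can give. With 1 library left out they were 1.09 to 1.24, 1.06 to 1.46 and 1.08 to 1.31, with the stages apart each time. With let-7a-5p and let-7j-5p counted as 2 rows, 0 share differences passed (each row of let-7a-5p 2.07 percentage points, against 2.90 with the pair counted once) and the log2 ratio of the summed level was 1.16. That sum, and the share denominator of members with at least 3 reads in every library, were added after seeing the data and changed no call. As no pair of arms reached the minimum of 3 reads in every library, the alternative minimum of 10 could give none either. No paired analysis was possible because the replicate numbers 1 to 8 are all different. At HH18 depths, levels under 2.40 to 12.5 normalized counts lie below 3 reads.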
